A study of Homo sapiens with 6 samples.

Results

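Ezrin (EZR), radixin (RDX), moesin (MSN) and merlin (NF2) were examined in RNA-seq of NCI-H1975, an established human lung adenocarcinoma (LUAD) cell line. The cells received a PCDNA3.1-SAM68 plasmid or the empty PCDNA3.1 plasmid (2 µg per well, by lipofection), and RNA was taken after 48 h from 3 biological replicates of each group. The transfection was transient and in 1 cell line, so all 6 libraries share that line and the plasmid backbone. SAM68, the product of KHDRBS1, is an RNA-binding protein that takes part in alternative splicing (AS), and the study asked which splice choices move when it is overexpressed. The deposited tables list, for AS events of 5 types, the reads that cross the junctions of an inclusion form and of a skipping form. The members are all listed events of the 4 genes with a mean of at least 10 such reads over the 6 libraries. Within these genes they were selected on their total of junction reads, but the 4 genes themselves were chosen with earlier results of these libraries known, so shares of all events are given beside their counts as background only. They are 30 of the 66395 events that pass the same limit (31 of 78336 before it). EZR has 10, NF2 10, RDX 5 and MSN 5. By type they are 24 skipped exons (SE), 5 mutually exclusive exon pairs (MXE) and 1 alternative 5ʹ splice site (A5SS). The event below the limit is a retained intron of NF2, with 3 inclusion reads and 1 skipping read over the 6 libraries.

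Ezrin, radixin and moesin, the ERM proteins, link the actin cortex to the plasma membrane. Their N-terminal FERM domain binds membrane proteins such as CD44, their C-terminal end binds F-actin, and the ends of a closed molecule bind each other until a membrane lipid and phosphorylation open it. Merlin, the product of the tumor suppressor gene NF2, has the same FERM domain, lacks the F-actin site at its C-terminal end and acts upstream of the Hippo kinases. The ERM proteins shape microvilli, cell adhesion and migration in epithelial cells, and ezrin is the main member in many epithelia.

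In GENCODE 44 on GRCh38, EZR (ENSG00000092820.19) spans chr6:158765741-158819368 and RDX (ENSG00000137710.17) chr11:109864295-110296712, both on the − strand. MSN (ENSG00000147065.18) spans chrX:65588377-65741931 and NF2 (ENSG00000186575.19) chr22:29603556-29698598, both on the + strand. Positions and exon numbers follow the representative (MANE Select) transcripts of GENCODE 44, which have 14, 14, 13 and 16 exons in this order. Exons 3 to 12 of EZR and RDX and exons 2 to 11 of MSN form 10 sets of equal length, 1332 nt in all. Within these sets the ungapped nucleotide identity was 59.5% to 83.5% between EZR and RDX, 59.0% to 88.1% between EZR and MSN and 57.0% to 80.5% between RDX and MSN. The called event below pairs exons 3 and 4 of EZR, 84 and 96 nt long, which code for the FERM domain and keep the reading frame. They are shown with the matching exons of RDX and MSN. Capitals mark the positions at which all 3 genes have the same base, 63 of 84 in the first set and 61 of 96 in the second. Sequences are from hg38 and read in the direction of each gene.
EZR exon 3, chr6:158789288-158789371, − strand: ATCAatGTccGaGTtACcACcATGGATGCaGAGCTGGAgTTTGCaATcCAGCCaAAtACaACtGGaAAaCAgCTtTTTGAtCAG
RDX exon 3, chr11:110272536-110272619, − strand: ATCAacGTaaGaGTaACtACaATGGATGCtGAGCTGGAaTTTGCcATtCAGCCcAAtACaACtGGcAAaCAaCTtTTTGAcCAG
MSN exon 2, chrX:65716818-65716901, + strand: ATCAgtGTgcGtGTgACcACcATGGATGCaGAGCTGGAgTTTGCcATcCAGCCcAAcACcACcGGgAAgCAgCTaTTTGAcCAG
EZR exon 4, chr6:158787108-158787203, − strand: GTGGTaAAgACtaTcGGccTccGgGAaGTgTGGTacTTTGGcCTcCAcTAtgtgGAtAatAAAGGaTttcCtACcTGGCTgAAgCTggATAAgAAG
RDX exon 4, chr11:110264779-110264874, − strand: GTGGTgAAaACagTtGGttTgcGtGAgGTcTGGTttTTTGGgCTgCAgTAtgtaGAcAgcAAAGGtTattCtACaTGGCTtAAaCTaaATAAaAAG
MSN exon 3, chrX:65727814-65727909, + strand: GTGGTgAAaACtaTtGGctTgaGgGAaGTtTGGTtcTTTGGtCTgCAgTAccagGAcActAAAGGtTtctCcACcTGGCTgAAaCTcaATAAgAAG
Exon 3 of EZR was 83.3% identical to exon 3 of RDX and 84.5% identical to exon 2 of MSN. Exon 4 of EZR was 69.8% identical to exon 4 of RDX and 76.0% identical to exon 3 of MSN.

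The libraries held 16951876 to 19737729 junction reads in the SE table, where a read can count in several events. The lists in the tables carry no replicate numbers, so a library is named here by its position in its group's list. The first list of each row was read as control, since the study's own plot of PKM gives its inclusion levels to the control libraries. KHDRBS1 bears on this order. Its most read event had 312, 329 and 316 reads per 1000000 (rpm) with the empty plasmid against 1232, 1261 and 1277 rpm with SAM68, a log2 fold change of 1.98 (standard error 0.047, adjusted p = 1.15e-21, limma). All SAM68 libraries lay above all control libraries, and the values include reads of the plasmid transcript. Of the markers of an epithelial cell, KRT8, KRT18 and KRT7 had events with at least 10 reads, whereas EPCAM, CDH1 and KRT19 had none listed. KRT8 had 337 ± 159 and 238 ± 9.67 rpm, KRT18 483 ± 10.7 and 525 ± 4.84 rpm and KRT7 3.68 ± 0.743 and 1.77 ± 0.474 rpm (control and SAM68, SD, n = 3 each), and none passed the test (adjusted p = 0.254, 0.306 and 0.383, limma). None of the 5 markers of lung adenocarcinoma had a listed event of that depth, and a gene without listed events cannot be judged from these tables. Of other cell types, VIM (4153 and 4139 rpm in the group means) and CD68 (96.3 and 100.1 rpm) were listed, and PTPRC, COL1A1, PECAM1 and VWF were not.

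Reads per gene were compared first, since the 4 genes span a wide range of abundance. The most read event of each gene was taken in its place and scaled to reads per 1000000 of such reads in the library. None of the 4 genes was called, that is, had an adjusted p under 0.05 with at least a doubling or halving, against 0.0493% of the 10147 genes tested (5 genes). At an unadjusted p under 0.05 the count among the 4 was also 0, against 12.1% of the genes tested (1224 genes). Because the samples are bulk RNA, less RNA per cell and fewer cells of a kind cannot be told apart in these values.

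EZR had 656, 673 and 643 rpm with the empty plasmid against 682, 665 and 644 rpm with SAM68. The groups overlapped, with means of 657 ± 15.3 and 663 ± 19.1 rpm (SD, n = 3 each) and a log2 fold change of 0.01 (standard error 0.047, adjusted p = 0.936, limma). MSN had 452, 434 and 437 rpm with the empty plasmid against 443, 453 and 448 rpm with SAM68. Its group means were 441 ± 9.69 and 448 ± 4.69 rpm (SD, n = 3 each), with a log2 fold change of 0.02 (standard error 0.051, adjusted p = 0.902). RDX, the ERM protein with the fewest reads, had 46.9, 49.4 and 53.6 rpm with the empty plasmid against 43.8, 48.1 and 48.3 rpm with SAM68. These groups overlapped too (log2 fold change −0.10, standard error 0.11, adjusted p = 0.781). As the median over the RDX events per length, the log2 fold change was −0.31 (adjusted p = 0.323). NF2 had 34.3, 33.9 and 32.8 rpm with the empty plasmid against 35.2, 26.8 and 35.6 rpm with SAM68. The SAM68 library at position 2 was the lowest of the 6, with a log2 fold change of −0.06 (standard error 0.14, adjusted p = 0.896). In the plot of reads per gene the control and SAM68 points of each of the 4 genes overlap, while those of KHDRBS1 stand apart.

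**Figure D1:**
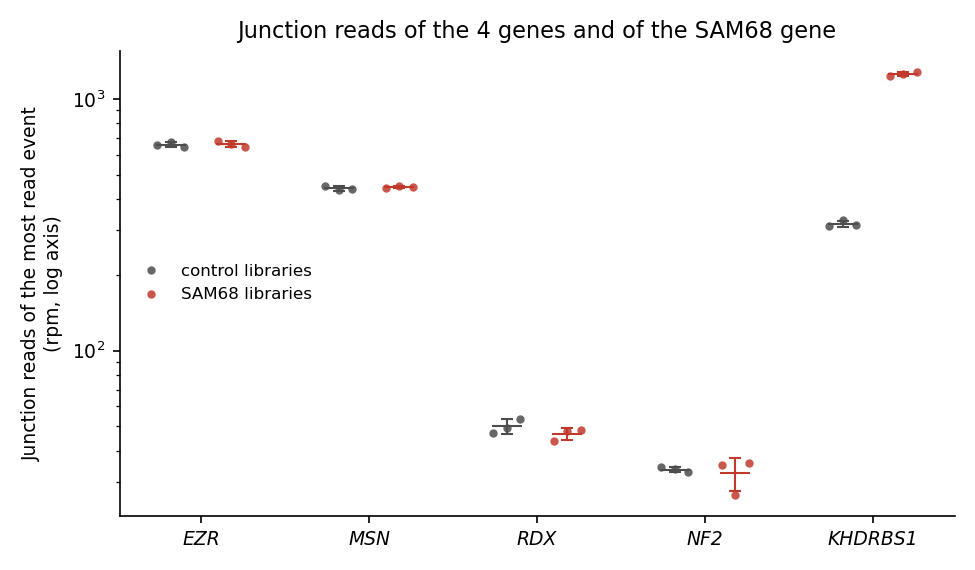
Reads of the most read event of EZR, MSN, RDX, NF2 and KHDRBS1 in each library (rpm, log axis), with the mean and SD of the 3 control (grey) and 3 SAM68 (red) libraries. The groups overlap for the 4 member genes, from 26.8 rpm for NF2 to 682 rpm for EZR, and are separate for KHDRBS1.

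Levels of different genes can be compared only per length of junction. The median over the SE events of a gene, in reads per 130 nt of effective length and per 1000000 reads, was 284 ± 9.36 for EZR, 237 ± 12.8 for MSN, 24.6 ± 3.31 for RDX and 10.4 ± 1.64 for NF2 in the control libraries (SD, n = 3 each). In the SAM68 libraries it was 269 ± 2.87, 241 ± 8.84, 19.6 ± 1.94 and 11.1 ± 0.29 (SD, n = 3 each). The order EZR, MSN, RDX, NF2 was thus the same in both groups on this scale. EZR had 290.3, 287.8 and 272.9 with the empty plasmid against 272.6, 268.2 and 267.2 with SAM68. On this scale its SAM68 libraries thus lay just below its control libraries, a difference that was not tested. The median per length over the EZR events of all types, with a separate scaling, gave a log2 fold change of −0.069 (adjusted p = 0.615, limma). In the control libraries even the closest neighbours, EZR (273 to 290) and MSN (222 to 245), did not overlap, and neither did RDX (21.2 to 27.8) and NF2 (8.53 to 11.6). These medians depend on which events were listed. The RDX events within intron 2, for example, rest on the same skipping reads (143, 132 and 166 in the control libraries), and single events of RDX and NF2 need not keep this order.

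The inclusion share was examined next. Percent spliced in (PSI) is the share of the inclusion form after the reads of each form are divided by its effective length, and ∆PSI is SAM68 minus control in percentage points. A call required a ∆PSI of at least 10 points either way and an adjusted p under 0.05 in a quasi-binomial test. Of the 30 member events 1 was called, an MXE event of EZR, against 0.0934% of all 66395 events (62 events). Among the 24 SE events 0 were called (0.0738% of all SE events were), and the count was 1 of 5 for MXE (0.239%) and 0 of 1 for A5SS (0.133%). A ∆PSI of at least 10 points, whatever the test, was found for 2 members, against 7.16% of all events. An unadjusted p under 0.05 was found for 6 of the 30 members and 5.95% of all events. Beside the called event these were SE events with small or opposing ∆PSI. They were exon 4 of EZR (0.60 points), exons 2 and 7 of MSN (0.16 and −0.19 points) and exon 2 of NF2 in separate events (10.6 and −6.20 points). PSI did not overlap between the groups for 4 of the 30 members and for 6.13% of all events. The median absolute ∆PSI was 0.32 points over the members and 1.24 points over all events.

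The called event pairs exon 3 with exon 4 of EZR, between exons 2 and 5. PSI here is the share of reads assigned to exon 3, the exon nearer the 5ʹ end. It was 57.2%, 54.6% and 61.1% with the empty plasmid against 47.7%, 51.0% and 43.1% with SAM68. Every SAM68 library lay below every control library, and PSI fell by 10.3 points from 57.6% ± 3.26 to 47.3% ± 3.99 (SD, n = 3 each; adjusted p = 1.03e-12, quasi-binomial test with a dispersion shared by all MXE events). The exact permutation test of PSI gave p = 0.1 (two-sided), the smallest p that 3 against 3 libraries allow. The call was lost where the event kept its own spread (adjusted p = 0.895, unadjusted p = 0.0257) and when limma was run on logit-transformed PSI (adjusted p = 0.872). It was also lost without the control library at position 3 or the SAM68 library at position 3, which left a ∆PSI of −8.61 and −8.24 points. The study's own list of AS changes, made on these libraries, also holds this event, so that list is not independent evidence of it.

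The reads behind the exon 3 form were 1470, 1551 and 1647 with the empty plasmid against 1228, 1171 and 926 with SAM68. Those behind the exon 4 form were 1163, 1363 and 1109 with the empty plasmid against 1420, 1188 and 1293 with SAM68. Scaled to the library, the exon 3 form went from 259 ± 15 to 193 ± 22.5 rpm and the exon 4 form from 201 ± 15.7 to 227 ± 9.83 rpm (SD, n = 3 each). The larger part of the difference in rpm was thus at exon 3.

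A mutually exclusive choice would show as junctions that join exon 2 to exon 4 or exon 3 to exon 5. These junctions are counted as the skipping reads of the SE events of exon 3 and exon 4. Exon 2 to exon 4 had 0, 2 and 0 reads with the empty plasmid against 0, 1 and 0 with SAM68. Exon 3 to exon 5 had 3, 39 and 10 reads with the empty plasmid against 6, 0 and 12 with SAM68, with 39 of the 52 control reads in the library at position 2. Together these were 73 of the 15529 reads of the MXE event, or 0.47%. The reads of the exon 3 form equalled, within 1 read in each library, the reads that cross from exon 2 into exon 3 without entering exon 4, plus those from exon 3 to exon 5. Meanwhile the junction that joins exon 3 to exon 4 held 1667, 1700 and 1567 reads with the empty plasmid against 1560, 1220 and 1207 with SAM68, and it enters neither form. Both exons are present in all 3 annotated transcripts of EZR. In the SE events both were nearly always included. Exon 3 had 9549 inclusion reads against 2 skipping reads in the control group and 7294 against 1 in the SAM68 group, and exon 4 had 8561 against 52 and 7882 against 18. The ∆PSI of the MXE event is therefore a difference between the reads on the 5ʹ side of exon 3 and on the 3ʹ side of exon 4, with hardly any transcript reads that lack either exon.

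The reads of both forms of each SE event were then compared along the gene, a comparison chosen after the EZR values had been seen. Of the 24 SE events of the members 2 had an adjusted p under 0.05 (limma on log2(rpm + 0.5) over all SE events), against 0.396% of the 47450 SE events (188 events, 139 of them lower). That background count moved with the processing, to 110 with median-of-ratios scaling, 222 with a pseudocount of 5 rpm and 32 to 226 without single libraries. Both were events of EZR at its 5ʹ end, and the reads that join exon 2 to exon 3 count in both, so they are not separate evidence. The event of exon 2 (85 nt, which holds the start codon) had 357, 335 and 367 rpm with the empty plasmid against 259, 290 and 238 rpm with SAM68. No library of one group reached the other group, and the reads fell by 0.43 on the log2 scale to 74.3% of the control mean (standard error 0.067, adjusted p = 0.00194). The event of exon 3 had 541, 512 and 536 rpm with the empty plasmid against 439, 439 and 389 rpm with SAM68. It fell by 0.33 on the log2 scale to 79.8% of the control mean (standard error 0.055, adjusted p = 0.00597), again without overlap.

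Farther 3ʹ the difference was smaller at each step until exon 7, in events that share junction reads with their neighbours up to exon 4. The event of a 166-nt exon within intron 3, nearly all of whose reads join exon 3 to exon 4, had a log2 change of −0.24 (standard error 0.063, adjusted p = 0.104). Its SAM68 libraries (225 to 248 rpm) lay below its control libraries (264 to 289 rpm). Exon 4 had a log2 change of −0.06 (standard error 0.054, adjusted p = 0.727), exon 7 of 0.01, exon 8 of 0.04 and exon 11 of 0.01 (adjusted p = 0.952, 0.796 and 0.948), all with overlapping groups. The median over all SE events was −0.04. The reads of exons 2, 3 and 4 are in part the reads of the MXE event, so the 2 results are not independent. Without the control library at position 1 the exon 3 event lost its call (adjusted p = 0.0644), while the exon 2 event kept an adjusted p under 0.05 without any single library (0.000186 to 0.0282).

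**Figure D2:**
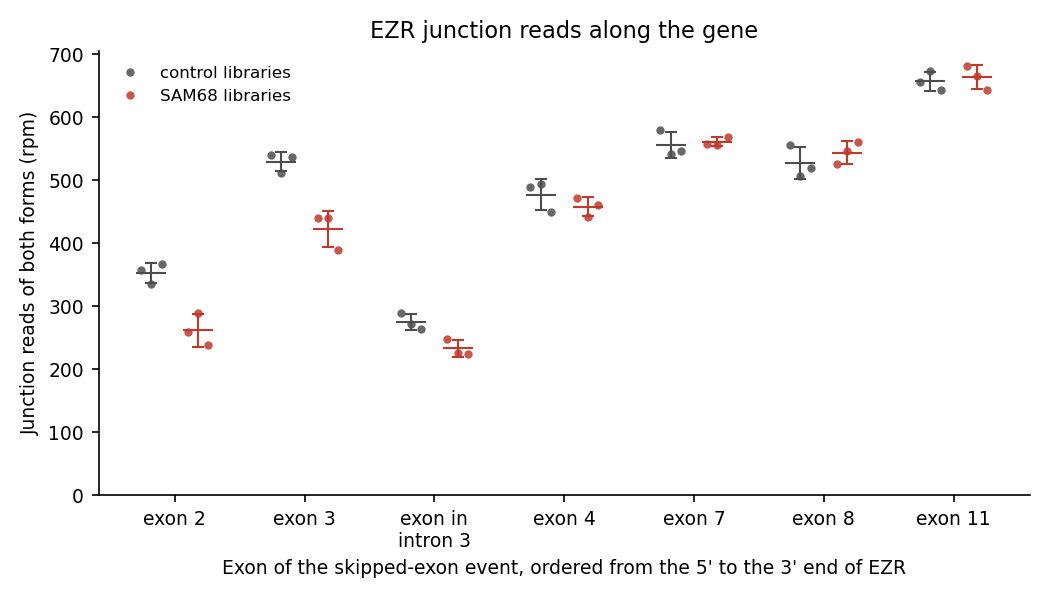
Junction reads of both forms of the 7 SE events of EZR (rpm), ordered from the 5ʹ to the 3ʹ end, in each control (grey) and SAM68 (red) library, with mean and SD (n = 3 each). The SAM68 libraries lie below the control libraries at exon 2, exon 3 and the exon in intron 3 and overlap with them from exon 4 on.

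A ratio within each library reuses the reads of exons 2 and 11, whose changes were already seen, so its direction is not separate evidence, and it did not pass its test. Inclusion reads per length at exon 2 relative to exon 11 were −0.60, −0.72 and −0.53 on the log2 scale with the empty plasmid against −1.11, −0.92 and −1.16 with SAM68. The groups did not overlap, and the difference was −0.45 (standard error 0.11, adjusted p = 0.398, limma over 4180 genes with SE events of at least 100 inclusion reads at both ends). It was not called, where 0.0478% of those genes were (2 genes). A difference of at least that size in either direction was found in 188 of the 4180 genes (4.5%), and the median over them was −0.03. The same ratio between the first and the last SE event differed by −0.16 for RDX, 0.03 for MSN and −0.30 for NF2 (adjusted p = 0.747, 0.940 and 0.596).

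The other 3 genes showed no SE event that passed the test on reads. In MSN, whose exons match those of EZR, the log2 changes were 0.05 for exon 2, 0.05 for exon 3, 0.01 for exon 7 and 0.02 for exon 11 (adjusted p = 0.809, 0.816, 0.981 and 0.916). MSN is deeply read, with standard errors of 0.051 to 0.061, so its exons 2 and 3 were measured about as closely as exons 3 and 4 of EZR. In RDX the 2 events within intron 2, whose reads nearly all join exon 2 to exon 3, had −0.32 for both (standard error 0.16, adjusted p = 0.430 and 0.440), and its other 3 events lay between −0.10 and 0.06. In NF2 the changes ran from −0.27 at exon 3 to 0.25 in intron 15, with standard errors of 0.13 to 0.22 and adjusted p of at least 0.566. The plot of changes along the 4 genes shows these values in order.

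**Figure D3:**
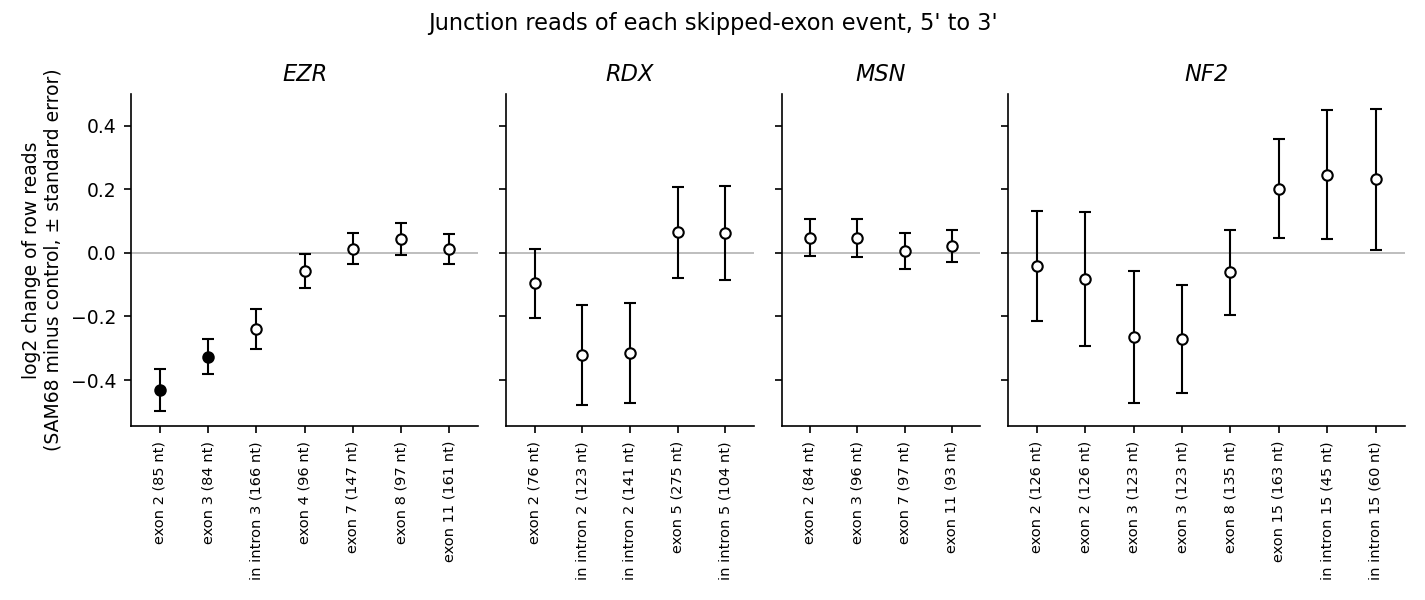
Log2 change (SAM68 minus control) of the junction reads of each of the 24 SE events with its standard error, ordered 5ʹ to 3ʹ within EZR, RDX, MSN and NF2. Filled points mark an adjusted p under 0.05, which exons 2 and 3 of EZR reached (−0.43 and −0.33), and the 4 MSN events lie between 0.01 and 0.05.

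The other MXE events were built in the same way from neighbouring exons. The junctions that would define an exclusive choice made up 0.0216% of the reads for exons 7 and 8 of EZR, 0.0692% for exons 2 and 3 of EZR, 0.252% for exons 2 and 3 of MSN and 1.94% for exons 2 and 3 of NF2. None of these events was called. Exons 2 and 3 of MSN are the counterparts of exons 3 and 4 of EZR, and the share of exon 2 was 64.9%, 65.0% and 62.3% with the empty plasmid against 63.2%, 65.6% and 64.1% with SAM68. The groups overlapped, with a ∆PSI of 0.25 points (adjusted p = 0.995). For exons 7 and 8 of EZR, the most read MXE event of the members (2852 to 3339 reads per library), ∆PSI was −1.22 points (adjusted p = 0.870). The difference between the ∆PSI of EZR and of MSN was not tested.

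SE events of the ERM genes were mostly included or skipped. Over the 4 genes 16 of the 24 SE events were included at over 95% in the mean of the groups, 4 at under 5%, and 4 lay between, all 4 of these in NF2. Among the first class the lowest library was at 88.3%, for exon 5 of RDX between exons 3 and 6, with group means of 95.43% ± 3.18 and 94.97% ± 6.01 (SD, n = 3 each). These flanks pass over exon 4, so the skipping form lacks exons 4 and 5 together. Its inclusion reads equalled those that join exon 5 to exon 6 in each library, so none came from a junction of exon 3 with exon 5. The most read SE event of each gene stands for the first class. Exon 11 of EZR, in the helical stretch behind the FERM domain, had 4 skipping reads beside 11860 inclusion reads in the control group and 0 of 11440 reads in the SAM68 group, which allows a skipping share of up to 0.0262% of reads. Exon 11 of MSN had 0 skipping reads of 7961 (up to 0.0377%) and 1 of 7710. Exon 2 of RDX (76 nt) had 1 of 902 and 4 of 802, and exon 8 of NF2 (135 nt) had 1 of 608 and 0 of 563 (up to 0.533%). These limits are 3 reads over the group's reads and cover counting error only. Their ∆PSI were 0.063, −0.023, −0.60 and 0.34 points, with adjusted p of 0.699 each.

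The 4 rarely included exons are the 166-nt exon of EZR and 3 exons of RDX, 1 of 104 nt within intron 5 and 2 of 123 and 141 nt within intron 2 that share their 3ʹ end. They fall outside the naming rule and are given because they are the whole class. The EZR exon (chr6:158788314-158788479) had 8, 6 and 10 inclusion reads with the empty plasmid against 10, 12 and 18 with SAM68. PSI was 0.245% ± 0.071 and 0.516% ± 0.21 (SD, n = 3 each) without overlap between the groups, and it was not called (adjusted p = 0.699). Its skipping reads are those of the junction from exon 3 to exon 4 given above. The RDX exons of 123 and 141 nt had 4 and 2 inclusion reads in the control group and 0 in the SAM68 group, where 337 reads of the event allow a share of up to 0.890%. The exon of 104 nt had 1 and 2 inclusion reads.

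NF2 held the SE events with a PSI between 5% and 95%. The textbook alternative of merlin is at its C-terminal end, where a short exon between the canonical exons 15 and 16 ends the open reading frame early and gives isoform 2. This exon occurs in the data in a form of 45 nt (chr22:29683020-29683064, + strand) and in a form extended by 15 nt to 29683079. In each of the 8 annotated transcripts that hold a form of it, 7 with 45 nt and 1 with 60 nt, the coding sequence ends after 33 nt of the exon. It is shown because the 3 NF2 events below differ only in it, with the 15-nt extension in capitals.
NF2 exon in intron 15, chr22:29683020-29683079, + strand: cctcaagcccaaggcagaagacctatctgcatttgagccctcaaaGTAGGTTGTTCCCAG
Against skipping from exon 15 to exon 16, the event of the 45-nt form had PSI of 23.9%, 27.2% and 10.4% with the empty plasmid against 17.2%, 26.5% and 13.2% with SAM68. The libraries of both groups covered the same range, and ∆PSI was −1.54 points (20.5% ± 8.92 and 19.0% ± 6.82, SD, n = 3 each; adjusted p = 0.881). The event of the 60-nt form had PSI of 9.80%, 14.3% and 0% with the empty plasmid against 8.74%, 4.68% and 4.12% with SAM68, a ∆PSI of −2.18 points (adjusted p = 0.765). Both events rest on the same skipping reads (38, 66 and 71 in the control and 79, 56 and 64 in the SAM68 libraries). They also share the inclusion reads that join exon 15 to the exon, so neither PSI is the share of that form alone. The control library at position 2 had 16 inclusion reads in the 60-nt event, but 0 reads of the long form in the A5SS event below.

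The A5SS event compares the 60-nt with the 45-nt form directly. With 2, 0 and 0 reads of the long form beside 12, 17 and 11 of the short form in the control libraries, and 4, 0 and 1 beside 15, 24 and 10 in the SAM68 libraries, it is the least read member (11 to 24 reads per library). PSI of the long form was 13.1%, 0% and 0% against 19.4%, 0% and 8.28%, a ∆PSI of 4.87 points (adjusted p = 0.870). The 45-nt form was thus the more read form in each library. No difference between the groups was detected at this depth.

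Exons 2 and 3 of NF2 (126 and 123 nt, both in frame), which code for the FERM domain, gave the largest ∆PSI among the SE events. Joining of exon 1 directly to exon 4 had 5, 6 and 3 reads with the empty plasmid against 0, 0 and 2 with SAM68. Against this junction exon 2 had PSI of 83.6%, 86.4% and 92.3% with the empty plasmid against 100%, 100% and 94.0% with SAM68, a ∆PSI of 10.6 points (87.5% ± 4.46 and 98.0% ± 3.44, SD, n = 3 each). All SAM68 libraries lay above all control libraries, but the event was not called (adjusted p = 0.699, exact permutation p = 0.1, two-sided). The study's list made on these libraries holds this event too. Exon 3 against the same junction had PSI of 89.7%, 85.8% and 91.3% and of 100%, 100% and 93.1%, a ∆PSI of 8.79 points (adjusted p = 0.699). Without division by effective length these ∆PSI were 5.81 points for exon 2 and 4.83 points for exon 3, the first then below the limit of 10 points. The 2 events share their skipping reads and are not separate evidence.

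The inclusion reads of these 2 events are also, read for read, the reads of the NF2 MXE event of exons 2 and 3. All are flanked by exons 1 and 4, so reads that join exon 2 to exon 3 count in none of them. The PSI of the 2 SE events is therefore not the inclusion of either exon over all transcripts. Its share of exon 2 was 37.0%, 51.4% and 53.5% with the empty plasmid against 47.7%, 50.5% and 54.1% with SAM68, a ∆PSI of 3.45 points with overlap (adjusted p = 0.922). Another event, outside the naming rule and chosen after its values were seen, joins exon 1 to exon 3 and so lacks exon 2 alone. Its skipping reads were 0, 0 and 0 with the empty plasmid against 5, 6 and 0 with SAM68. That is the opposite direction for exon 2, with a ∆PSI of −6.20 points and an adjusted p of 0.630. In this event exon 2 had a PSI of 100% in the control mean and 93.8% in the SAM68 mean. Exon 3 between exons 2 and 4 had 98.6% and 99.4%. With both events of exon 2 summed, its ∆PSI was 0.03 points (adjusted p = 0.995), and that of exon 3 summed in the same way was 3.89 points (adjusted p = 0.730). The plot of inclusion shares shows that among its 9 events only the EZR pair of exons 3 and 4 and the 2 NF2 events with the exon 1 to exon 4 junction were free of overlap.

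**Figure D4:**
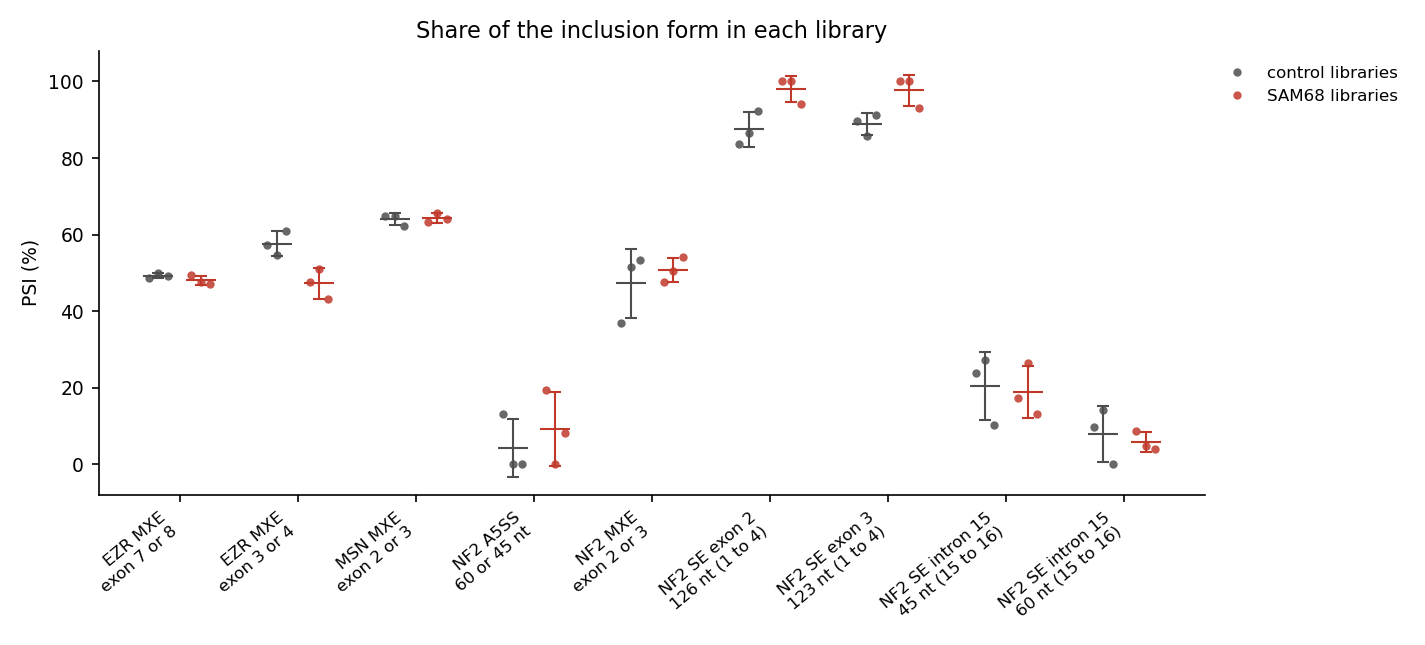
PSI (%) of the 9 named events that are not close to 100% in every library, in each control (grey) and SAM68 (red) library, with mean and SD (n = 3 each); numbers in brackets give the flanking exons. EZR exons 3 and 4 went from 57.6% to 47.3%, while MSN exons 2 and 3 stayed between 62.3% and 65.6% in the 6 libraries.

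SAM68 binds A/U-rich RNA, and ATAAA and TTAAA (U for T in RNA) were searched in the 200 nt before and after each exon on the strand of the gene, with overlaps counted. Of 38685 exons of all tested SE events, 48.3% had a match before the exon and 47.1% after it, and 23% had at least 2 after it. Exon 3 of EZR had 0 matches before it and 2 after it, and exon 4 had 0 on both sides. The NF2 exon in intron 15 had 1 before and 0 after. Matches on this scale are common, and binding was not measured. Of the 22 exons of the members 21 had AG before and GT after them, and exon 4 of EZR was followed by GC.

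Genes that work with these proteins were described from 3 lists. Of the membrane partners and scaffolds of ERM proteins, 4 genes with 61 events could be tested. None of the events and none of the genes was called. CD44, the hyaluronan receptor that the FERM domain binds, had 400 ± 16.5 rpm in the control and 415.5 ± 26.8 rpm in the SAM68 libraries (SD, n = 3 each; log2 fold change 0.05, adjusted p = 0.759). ICAM1, an adhesion receptor, had a log2 fold change of 0.09 and SLC9A3R1, the scaffold NHERF1, of −0.15 (adjusted p = 0.792 and 0.592).

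Of the merlin and Hippo pathway, 26 genes with 148 events were tested and none was called. WWTR1, which encodes the co-activator TAZ, had a log2 fold change of 0.19, TEAD4, a partner of YAP and TAZ, of −0.13, and DDB1, part of the ubiquitin ligase that merlin inhibits, of −0.08 (adjusted p = 0.374, 0.579 and 0.692). Of other FERM domain proteins, 27 genes with 294 events were tested and none was called, with log2 fold changes of 0.07 for TLN1 (talin), −0.01 for EPB41L2 and −0.16 for SNX17 (adjusted p = 0.788, 0.970 and 0.378). The median log2 fold change of the 3 lists was −0.05, −0.05 and −0.09, against −0.03 over all genes. An unadjusted p under 0.05 was found for 1.64%, 4.73% and 2.04% of their events, against 5.95% of all events.

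Over the 6 libraries the genes whose log2(rpm + 0.5) was most alike to a member, among 6206 genes with at least 100 reads, were ZDHHC3 and PHACTR4 for EZR (Pearson r = 0.996 and 0.990) and VPS18 and AKR1B1 for MSN (0.985 and 0.972). They were MRPS17 and COL6A2 for RDX (0.985 and 0.980) and USP4 and ZNF32 for NF2 (0.982 and 0.980). The 6 points share their libraries and depth, so these values are a description.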

How the data were processed

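RNA from 3 control and 3 SAM68 samples was sequenced by the authors as paired-end reads, filtered with fastp 0.20.0, trimmed at the start, aligned with HISAT2 2.1.0 to GRCh38 and read by rMATS (versions from the submitters' processing notes, which also name CASAVA 1.4). The deposited tables hold junction read counts, inclusion levels, effective lengths and the authors' p-values, FDR and level differences, which were not used. All columns of values per library were mapped. In 275 events a spreadsheet had regrouped the lists of reads, and 162 of these events were recovered and 113 left out. The members have no such events.

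PSI, tests and calls were computed from the deposited counts. Each event was fitted with a quasi-binomial model, and squeezeVar (limma 3.58.1, R 4.3.3) moderated the dispersions of each type. This gave 1 dispersion to all events of a type (2.30 for SE, 2.53 for MXE, 2.51 for A5SS), less than the own spread of some events. Benjamini-Hochberg adjustment was done by type. Reads per gene and per SE event were tested with limma (eBayes with trend) on log2(rpm + 0.5), a scale that understates changes of low values. Single PSI comparisons used exact permutation tests (SciPy 1.17.1). The quasi-binomial test and the test of reads per gene were checked on simulated data. The simulated events all shared 1 dispersion, so that check cannot show how the test behaves for events with a wider spread.

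Named are events that were called or had a ∆PSI of at least 10 points, the most read event of each gene and type, events of at least 50 reads whose rarer form reached 5% in the mean of both groups, and up to 3 genes with the most reads of each list. A further list of genes is not reported here. The members, lists and naming rule were chosen with earlier results of these data known. Exon positions were matched to GENCODE 44, whose gene versions are newer than those of the files.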

Additional observations from a re-analysis of the deposited data

How the results depend on the processing

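The count of called member events (1) was 1 under 8 of the 10 alternatives to the model, the limits, the adjustment and the handling of lengths and rows, and 0 with the unmoderated dispersion and when limma was run on logit-transformed PSI. Leaving out each library in turn gave 0 to 1, and it was 0 without the control or the SAM68 library at position 3, where the EZR event of exons 3 and 4 kept −8.61 and −8.24 points (−10.3 in all libraries, −12.2 at most) and missed the limit of 10 points. The count of genes called (0) was 0 under each of 4 alternatives and without each library. The count of SE events called on reads (2), with alternatives chosen after seeing the data, was 2 with a pseudocount of 5 rpm and with median-of-ratios scaling, and 1 to 2 without each library.

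Some differences changed sign when a library was left out, and none of these was called. Without single libraries the MSN event of exons 2 and 3 ranged from −0.64 points (−0.41 without SAM68 library 2) to 0.82. The NF2 A5SS event ranged from −0.22 to 9.48 points, the NF2 MXE event from −1.69 to 6.54 and exon 2 of RDX from −0.996 to 0.19. The SE event of the 45-nt NF2 exon ranged from −6.60 to 1.81 points (0.18 without control library 1, 1.35 without SAM68 library 3). That of the 60-nt form, which shares part of its inclusion reads, ranged from −6.20 to 0.95. The log2 fold change of EZR, which rests on its exon 11 event, ranged from −0.0066 (−0.0027 without control library 3) to 0.035 and was −0.069 as the median over its events per length. That of NF2 ranged from −0.13 to 0.071 and was 0.0032 as this median. The causes were not tested. No paired analysis was possible because the lists carry no replicate numbers. Depth limits NF2 and RDX most, with 11 to 320 reads per event and library.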
